A study of Mus musculus with 6 samples.

Results

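The renal amino acid transporters described here are 10 genes, Slc6a19, Slc6a18, Slc7a9, Slc3a1, Slc7a13, Slc7a12, Slc1a1, Slc7a7, Slc7a8 and Slc38a3, of 36870 gene names on the array. They were chosen by name, as transporters of the kidney tubule, with the difference between the strains already known, since Slc7a13 was among the largest falls. Transcriptome analysis (TA) was performed on whole kidneys from 3 MRL/MpJ (MRL) mice and 3 MRL/MpJ-Fas lpr/lpr (LPR) mice, all females aged 6 months, each hybridized to an array of its own without pooling. LPR mice share the MRL/MpJ background of the controls and carry the lpr mutation of Fas, a death receptor gene, in every cell, and they develop lupus nephritis. All 6 single-colour arrays lay on 1 slide. The comparison asks how the level of each transporter transcript in the diseased kidney differed from that in the control kidney.

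The proximal tubule takes back nearly all filtered amino acids. Transporters of the brush border bring them into the cell, and other transporters of the basolateral membrane pass them on to the blood. Several of these carriers work only together with a partner protein, and inherited defects of human carriers of these families cause cystinuria, Hartnup disorder, dicarboxylic aminoaciduria and lysinuric protein intolerance.

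The 10 genes were represented by 15 probes, and 14 of these were tested because their signal was well above background in 3 or more of the 6 mice. The exception was the second probe of Slc7a13. A level is the log2 intensity of a probe after the 75th percentile of its array was subtracted, so that 0 is the signal of that percentile. A log2 change is LPR minus MRL, with its standard error (SE) from the fit of limma over all 39924 tested probes. A change passed when its Benjamini-Hochberg adjusted p over these probes was under 0.05, and only such changes are called falls or rises. The brightest tested probe stands for a gene. Apart from the choice of the brightest probe and the summed levels of marker lists, levels of different probes were not compared. On each array 69.6% to 73.5% of spots exceeded background, and 0 were saturated. The 75th percentile lay between 706 and 759 intensity units on 5 arrays and at 942 on that of LPR 1. The brighter Fas probe ran from -0.367 to -0.0556 in MRL mice and from -1.25 to -0.371 in LPR mice, so every LPR mouse was below every MRL mouse by a narrow margin, and its log2 change of -0.47 did not pass (SE 0.24, limma adjusted p = 0.234). The other Fas probe went the opposite way. Its signal exceeded background in 3 of 3 LPR mice but in 0 of 3 MRL mice. LPR mice had at least 1.47-fold higher signal, with the dimmest signal well above background on each MRL array in place of its own. This bound was not tested, and the probe met the filter only through the LPR mice. Which part of the transcript these probes read was not examined, so they do not check the strain labels.

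The probes that the results turn on are shown by their first 30 of 60 bases, 5′ to 3′, with their places on the mouse build mm9. All bases are in lower case, since no part is singled out. Both probes are shown for Slc7a13, Slc1a1 and Slc7a8. Exon and untranslated region annotation of that build was not used here.
Slc7a13 A_51_P208160, chr4:19768758-19768817 (plus strand): ccatactgtgttccagataaaggttaagtg
Slc7a13 A_55_P2738302, chr4:19767492-19767551 (plus strand): ggccaaccttatgtacaaatggttaaaatt
Slc6a19 A_55_P1997595, chr13:73818718-73818777 (minus strand): ctgaagagggcatatttatgcacacatgta
Slc1a1 A_51_P110759, chr19:28988332-28988391 (plus strand): gttcacaagatcattggggtcatcttgtaa
Slc1a1 A_52_P637988, chr19:28987016-28987075 (plus strand): cactggtagctgacagccagtgttcggtat
Slc7a8 A_51_P112734, chr14:55341137-55341196 (minus strand): tatttcttttggattttttaatgtatggcg
Slc7a8 A_55_P2883452, chr14:55400157-55400215 (minus strand): tgaaaaagactgctctttttcgctttgggt
The 2 Slc7a13 probes lie 1.21 kb apart on chromosome 4, and the 2 Slc1a1 probes 1.26 kb apart on chromosome 19. The 2 Slc7a8 probes are separated by 58.96 kb on chromosome 14.

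In LPR mice, 3 of the 10 transporter genes fell, namely Slc7a13, Slc6a19 and Slc1a1, and 0 rose. At an unadjusted p under 0.05 in limma, 5 were lower and 0 higher, beside 8200 lower and 3926 higher of all 39924 tested probes. For the 10 genes, the methods' t-test on log2 values gave 5 lower and 0 higher at its unadjusted threshold. After Benjamini-Hochberg adjustment it gave 1 lower and 0 higher. The study ran this test on genes that differed 10-fold or more, whereas here it was run on all tested probes. Over all genes by their brightest probe, 5.47% fell and 7.12% rose, and over the genes brighter than the 75th percentile these shares were 4.78% and 4.6%. Over all tested probes, 6.17% fell and 6.53% rose. Because the genes were picked with this contrast in view, their count is a description, and nothing is read from it. The log2 changes of the 10 genes ran from -2.12 to 0.09 with a median of -0.40, beside a median of -0.14 over all tested probes. The levels of 6 of the 10 genes did not overlap between the groups, with every LPR mouse below every MRL mouse, which held for 25.6% of all genes, 28.5% of the genes brighter than the 75th percentile and 26.9% of all tested probes. In none of the 10 did every LPR mouse lie above every MRL mouse, which held for 11.7% of all genes. Slide positions were read from codes in the names of the deposited scans, not from the sample labels. By these, the 3 MRL mice and LPR 1 shared a row, and LPR 2 and LPR 3 lay in the other. With this row as a block, which leaves LPR 1 against the MRL mice, 0 of the 10 genes passed and the log2 change of Slc7a13 was -1.79. Of 22 alternative settings, Slc7a13 passed in 12, Slc6a19 in 11 and Slc1a1 in 15, each below 0 in all 22. In a whole kidney, fewer tubule cells and less RNA per cell cannot be told apart.

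**Figure D1:**
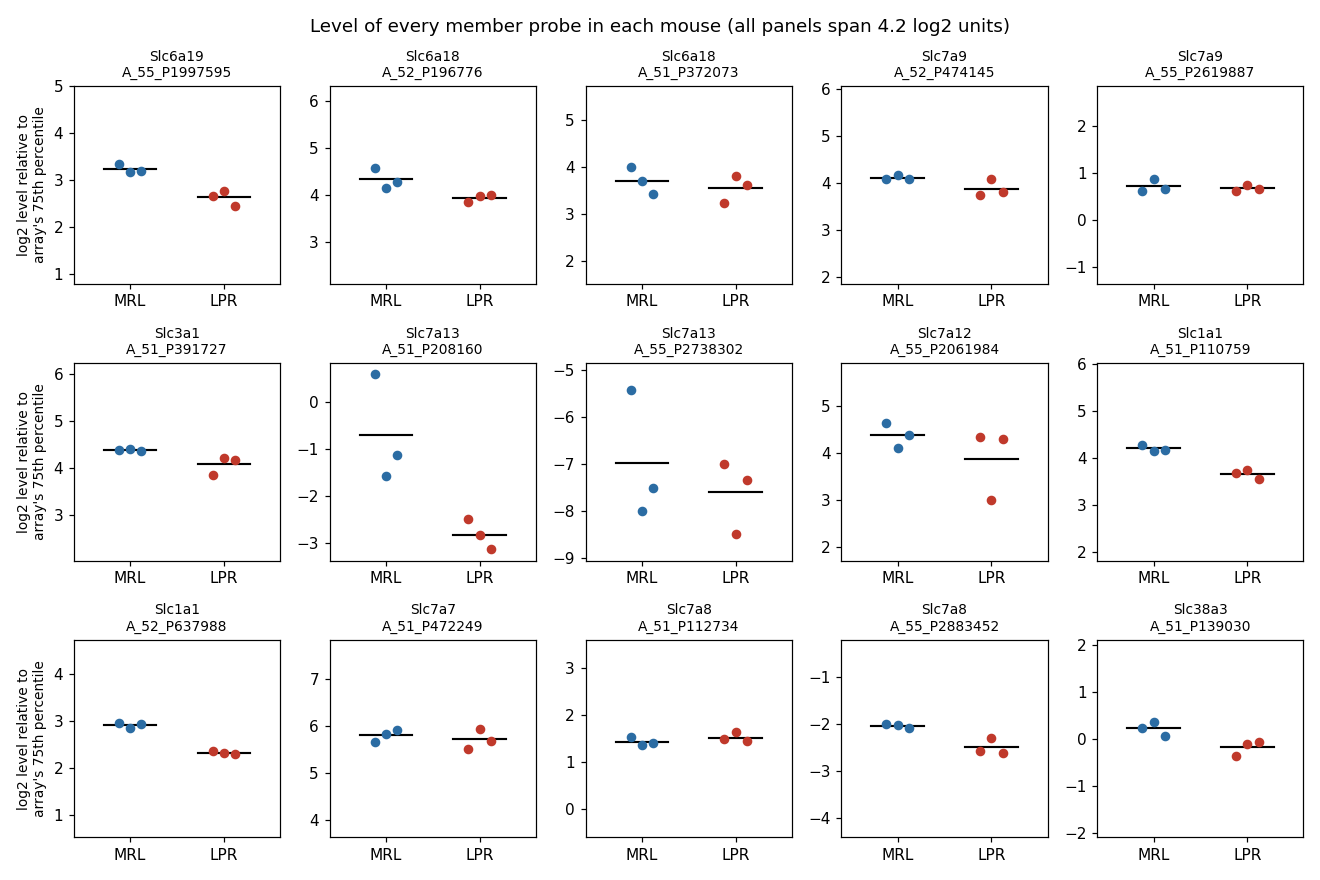
Level of each of the 15 probes in each mouse, as log2 intensity relative to the 75th percentile of the array (vertical axis), for 3 MRL mice (blue) and 3 LPR mice (red), with the group mean as a line. Each panel spans 4.2 log2 units. The Slc7a13 panels show MRL 1 far above the other MRL mice, and the Slc7a12 panel shows LPR 2 at 3.00, below the other LPR mice.

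Slc7a13 encodes AGT1, a carrier of acidic amino acids and cystine of the proximal straight tubule that works together with the heavy chain encoded by Slc3a1. Its level was 0.58 in MRL 1, -1.58 in MRL 2 and -1.12 in MRL 3, and it was -2.50 in LPR 1, -2.84 in LPR 2 and -3.13 in LPR 3. The 3 LPR mice lay below the 3 MRL mice, and the lowest MRL mouse was 0.92 above the highest LPR mouse. The log2 change of -2.12 (SE 0.53) is a 4.34-fold lower signal in LPR mice. Counted from the most negative log2 change, this was number 20 of 25805 genes, and number 16 among those that passed. Because Slc7a13 was chosen as one of the largest falls, nothing is read from this rank.

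MRL 1 stood apart for Slc7a13. The SD of the MRL mice was 1.14, larger than that of 99.5% of the tested probes, while the SD of the LPR mice was 0.32. Without MRL 1 the log2 change was -1.47 and still passed, and without MRL 2 it was -2.56 and passed. It was -2.32 without MRL 3, -2.28 without LPR 1, -2.11 without LPR 2 and -1.96 without LPR 3, and none of these passed. The direction was thus kept with each mouse left out, but the call was not.

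The second Slc7a13 probe was well above background only in MRL 1, with a level of -5.42 there. In the other mice it was between -8.48 and -7.00 and not well above background, so the groups overlapped and no fold is given. MRL 1 was the highest mouse for both probes.

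Slc7a12, a neutral amino acid carrier of the same family known as Asc-2, was measured by 1 probe on chromosome 3. Its level was 4.64, 4.11 and 4.39 in MRL 1 to MRL 3, and 4.35, 3.00 and 4.31 in LPR 1 to LPR 3. Only LPR 2 was below all MRL mice, and the SD of the LPR mice, 0.77, stood beside a median of 0.18 over all tested probes. The log2 change of -0.50 (SE 0.37, 95% confidence interval -1.37 to 0.38) did not pass, and it was -0.05 without LPR 2.

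Slc6a19 encodes B0AT1, the main brush border carrier of neutral amino acids, which is affected in Hartnup disorder. Its level was 3.35, 3.18 and 3.20 in MRL 1 to MRL 3, and 2.67, 2.78 and 2.46 in LPR 1 to LPR 3. The groups did not overlap, and the gap of 0.40 between them exceeded the range within either group. Slc6a19 fell by 0.61 on the log2 scale (SE 0.12), to 65.7% of the MRL signal. The call was lost without MRL 1, MRL 2, MRL 3, LPR 1 or LPR 3, with log2 changes from -0.64 to -0.52, and was kept without LPR 2 at -0.68.

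Slc6a18 encodes B0AT3, a related carrier of neutral amino acids and glycine, and its brighter probe lies 19.1 kb from that of Slc6a19 on chromosome 13. This probe gave levels of 4.58, 4.16 and 4.29 in MRL 1 to MRL 3, and 3.86, 3.97 and 4.01 in LPR 1 to LPR 3. All LPR mice were below all MRL mice, but the log2 change of -0.40 (SE 0.14) did not pass. The second probe, whose match spans 671 bases of the genome, gave 4.01, 3.70 and 3.44 in MRL mice and 3.25, 3.82 and 3.62 in LPR mice. These values overlapped, and the log2 change was -0.15 (SE 0.20). The neighbouring genes were thus both lower in the mean, and the difference between their changes was not tested.

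Slc7a9 encodes b0,+AT, the light chain of the brush border carrier of cystine and dibasic amino acids, and Slc3a1 encodes rBAT, its heavy chain. Both are mutated in cystinuria. For Slc7a9 the brighter probe gave 4.08, 4.18 and 4.09 in MRL 1 to MRL 3, and 3.74, 4.08 and 3.81 in LPR 1 to LPR 3. LPR 2 was level with the MRL mice, and the log2 change of -0.24 (SE 0.12, 95% confidence interval -0.53 to 0.05) did not pass. The second Slc7a9 probe, 9 kb away on chromosome 7, gave levels from 0.62 to 0.87 in MRL mice and from 0.62 to 0.75 in LPR mice, with a log2 change of -0.03 (SE 0.11). Slc3a1 was at 4.37, 4.40 and 4.35 in MRL 1 to MRL 3, and at 3.86, 4.21 and 4.18 in LPR 1 to LPR 3. Every LPR mouse was below every MRL mouse, with LPR 1 the lowest, and the log2 change of -0.29 (SE 0.13, 95% confidence interval -0.59 to 0.00) did not pass. In LPR mice the signal of this heavy chain was 81.5% of that in MRL mice, and that of Slc7a13 was 23.0%. The difference between these changes was not tested.

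Slc1a1 encodes EAAT3, the brush border carrier of glutamate and aspartate, and was the gene with 2 probes that both passed. The brighter probe gave 4.28, 4.16 and 4.18 in MRL 1 to MRL 3, and 3.68, 3.74 and 3.55 in LPR 1 to LPR 3. The other gave 2.96, 2.85 and 2.93 in MRL mice and 2.37, 2.32 and 2.29 in LPR mice. For neither probe did the groups overlap, and the log2 changes were -0.55 (SE 0.10) and -0.58 (SE 0.10). The call of the brighter probe was lost without MRL 1, MRL 2, MRL 3 or LPR 3, with log2 changes from -0.57 to -0.49. That of the second probe was kept with each mouse left out, from -0.62 to -0.56.

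Among the basolateral carriers, Slc7a7 encodes y+LAT1, which exports dibasic amino acids and is mutated in lysinuric protein intolerance. Its level was 5.66, 5.82 and 5.92 in MRL 1 to MRL 3, and 5.51, 5.94 and 5.67 in LPR 1 to LPR 3. The groups overlapped, and the log2 change was -0.09 (SE 0.14, 95% confidence interval -0.43 to 0.25). Slc38a3 encodes SNAT3, which takes up glutamine for ammonia formation. Its level was 0.23, 0.37 and 0.07 in MRL mice and -0.36, -0.11 and -0.07 in LPR mice. These groups did not overlap, and the log2 change of -0.40 (SE 0.13) did not pass.

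Slc7a8 encodes LAT2, a basolateral exchanger of neutral amino acids, and its 2 probes differed. The brighter probe gave 1.52, 1.36 and 1.39 in MRL 1 to MRL 3, and 1.47, 1.63 and 1.44 in LPR 1 to LPR 3, with a log2 change of 0.09 (SE 0.11, 95% confidence interval -0.17 to 0.35). The dimmer probe gave -2.00, -2.01 and -2.08 in MRL mice and -2.57, -2.29 and -2.61 in LPR mice. In the first the groups overlapped, and in the second every LPR mouse was lower, with a log2 change of -0.46 (SE 0.12) that did not pass. It passed without LPR 2, at -0.56. With both probes averaged, the log2 change of Slc7a8 was -0.18.

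**Figure D2:**
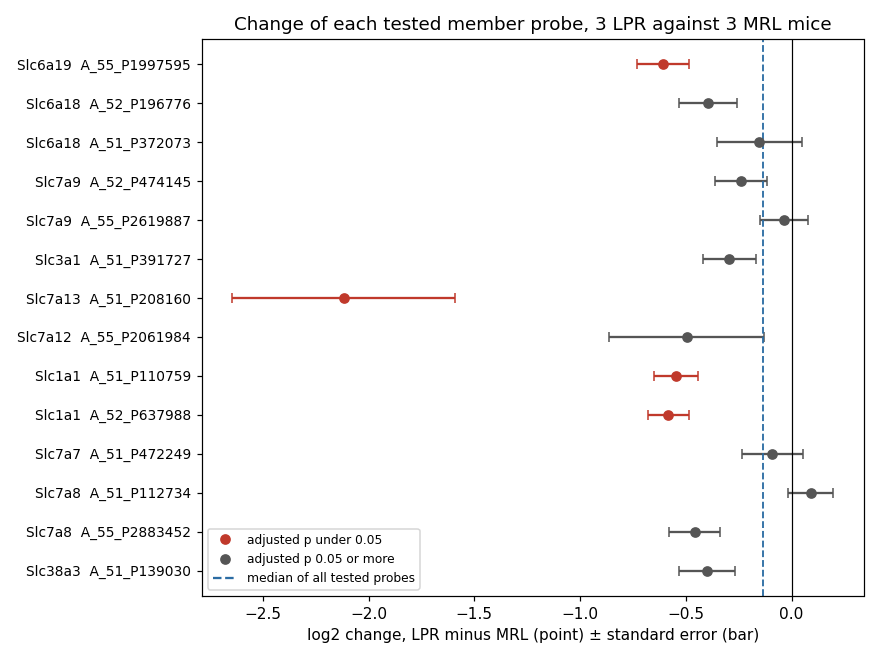
Log2 change, LPR minus MRL (horizontal axis), of the 14 tested probes as points with the standard error as bars, with the median of all tested probes, -0.14, as a dashed line. Red points passed the adjusted threshold, and Slc7a13 at -2.12 lies far to the left of the other probes with the widest bar.

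The mice did not keep one order over the genes. MRL 1 was the highest MRL mouse in 6 of the 10 genes and the lowest in 2. LPR 1 was the lowest LPR mouse in 5 genes, and LPR 2 was the highest in 6. The SD of MRL mice for Slc3a1, 0.02, and for Slc1a1, 0.07, was under the median of 0.13 over all tested probes.

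The 5 genes whose levels over the 6 mice were most like those of Slc7a13 by Pearson's r were Mtcl1 (r = 0.997), the transcript named LF192629 (0.996), the transcript named AF366264 (0.995), Kdm5a (0.993) and Rlf (0.992). They were taken from 23316 genes above background on all 6 arrays, and 155 of these had r over 0.95. This is a description over mice of both groups, with no test. For each of the 5, MRL 1 was the highest mouse and the 3 LPR mice were the lowest. Their log2 changes ran from -0.99 for AF366264 to -0.27 for Kdm5a, and none of the 5 passed.

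The upstream sequence of a gene is shown where RefSeq windows of the build GRCm38.p6 were at hand, which was so for 6 of the 10 genes. They are given for Slc6a19 and Slc1a1, which fell, and for Slc3a1, which holds a match. Each is the 250 bases before the transcription start, 5′ to 3′ on the strand of the gene, and capitals mark a match to the HNF4 motif CAAAGTCCA.
Slc3a1, chr17:85028097-85028346 (plus strand): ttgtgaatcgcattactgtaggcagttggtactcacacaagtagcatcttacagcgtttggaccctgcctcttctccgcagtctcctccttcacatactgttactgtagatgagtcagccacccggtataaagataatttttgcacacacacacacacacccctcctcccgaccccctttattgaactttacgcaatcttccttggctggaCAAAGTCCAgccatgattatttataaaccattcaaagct
Slc6a19, chr13:73692637-73692886 (minus strand): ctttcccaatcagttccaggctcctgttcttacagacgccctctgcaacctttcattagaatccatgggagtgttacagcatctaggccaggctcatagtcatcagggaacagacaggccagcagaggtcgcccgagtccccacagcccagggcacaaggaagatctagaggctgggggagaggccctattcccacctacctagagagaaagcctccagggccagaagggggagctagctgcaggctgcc
Slc1a1, chr19:28834885-28835134 (plus strand): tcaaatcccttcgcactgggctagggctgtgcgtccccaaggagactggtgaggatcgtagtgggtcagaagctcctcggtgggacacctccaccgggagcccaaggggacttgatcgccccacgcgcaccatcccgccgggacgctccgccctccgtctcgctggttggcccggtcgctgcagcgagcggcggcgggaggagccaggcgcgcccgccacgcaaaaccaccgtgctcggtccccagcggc
HNF4 factors are known regulators of proximal tubule genes. CAAAGTCCA and its shorter form CAAAGTC, which overlaps it, were chosen after matches had been seen, and were searched for on both strands of all 32851 windows of 300 bases, which also hold the first 50 transcribed bases. CAAAGTCCA was found in 0.475% of all windows and in that of Slc3a1, at -39 to -31 from the start. CAAAGTC was found in 4.44% of all windows, and besides Slc3a1 also in 1 window of Slc7a7. The windows of Slc6a19 and Slc1a1 held neither of these. They also differed in composition, with 4 CG dinucleotides and 57.3% G and C for Slc6a19, and 32 CG dinucleotides and 70.3% for Slc1a1, beside medians of 7 and 52.7% over all windows. These matches are a description of the letters and do not mark binding sites.

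The other amino acid transporters of the cell membrane and lysosome were 47 genes, of which 41 were tested. Of these, 2 fell, 0 rose and 39 did not pass. At an unadjusted p under 0.05 in limma, 11 were lower and 4 higher, and the methods' t-test on log2 values gave 2 lower and 0 higher after adjustment. The unadjusted limma counts of this and the following lists stand beside 8200 lower and 3926 higher of all 39924 tested probes. The median log2 change was -0.22. Slc7a3, a carrier of cationic amino acids, fell by 2.12 on the log2 scale (SE 0.27, limma adjusted p = 0.00353). Its levels were -3.43, -3.76 and -3.75 in MRL 1 to MRL 3, and -6.34, -5.22 and -5.72 in LPR 1 to LPR 3, with 2 of the 3 LPR arrays well above background. It passed with each mouse left out, and with normexp background correction and quantile normalization together its log2 change was -0.65.

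Slc6a12, which encodes BGT1, a carrier of betaine and GABA, fell by 1.22 on the log2 scale (SE 0.26, limma adjusted p = 0.0279). Its levels were 0.56, 0.31 and 0.81 in MRL 1 to MRL 3, and -0.52, -0.24 and -1.22 in LPR 1 to LPR 3. The call was lost without MRL 1, MRL 3 or LPR 1, at log2 changes from -1.29 to -1.10. Slc38a8, singled out after its values were seen, was higher in every LPR mouse but did not pass (log2 change 1.72, SE 0.45, limma adjusted p = 0.0504). Its levels were -3.41 to -3.22 in MRL mice and -2.33, -1.97 and -0.46 in LPR 1 to LPR 3.

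Of the partner proteins and peptide transporters, 9 were tested, 2 fell, 0 rose, and the median log2 change was -0.37. At an unadjusted p under 0.05 in limma, 5 were lower and 0 higher, and the methods' t-test gave 1 and 0 after adjustment. Anpep, the brush border aminopeptidase N, fell by 0.59 on the log2 scale (SE 0.12, limma adjusted p = 0.026), a call that was lost without any of the MRL mice or LPR 3. Tmem27, which encodes collectrin, the partner that brings B0AT1 to the renal brush border, had a log2 change of -0.37 (SE 0.14, limma adjusted p = 0.128). Slc3a2, the heavy chain of y+LAT1 and LAT2, had one of 0.03 (SE 0.15, limma adjusted p = 0.909). For neither the renal partner of B0AT1 nor the basolateral heavy chain did the change pass.

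The enzymes of amino acid metabolism in the proximal tubule were 51 tested genes, of which 7 fell and 0 rose, with a median log2 change of -0.30. At an unadjusted p under 0.05 in limma, 19 were lower and 0 higher, beside 8200 and 3926 of all 39924 tested probes. For this list the methods' t-test gave 4 and 0 after adjustment. Pck1, the gluconeogenic enzyme that uses carbon from glutamine, fell by 1.45 on the log2 scale (SE 0.17, limma adjusted p = 0.00211). Aspa, which cleaves N-acetylaspartate, fell by 0.76 (SE 0.12, limma adjusted p = 0.00725). Both passed with each mouse left out. Bhmt, which remethylates homocysteine with betaine, changed by -0.90, Gatm, the first enzyme of creatine synthesis, by -0.67, Agxt2 by -0.65, Gpt by -0.56 and Kynu by -0.48, with limma adjusted p values from 0.0221 to 0.0417. Each of these 5 calls was lost when some single mouse was left out. Bhmt passed without MRL 3 alone, Gpt without LPR 3 alone, Agxt2 without LPR 1 or LPR 2, Gatm without MRL 3 or LPR 2, and Kynu in no such fit.

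Of 11 tested regulators of the proximal tubule, 3 fell and 0 rose, with a median log2 change of -0.29. Unadjusted limma p values under 0.05 were found for 4 lower genes and 0 higher ones, and the methods' t-test gave 0 and 0 after adjustment. Nr1h4, the bile acid receptor FXR, fell by 0.65 on the log2 scale (SE 0.13, limma adjusted p = 0.0197), and Ppara, a receptor of fatty acid metabolism, by 0.89 (SE 0.20, limma adjusted p = 0.0322). With 1 mouse left out, Nr1h4 passed without MRL 1 or LPR 2, and Ppara without MRL 1 alone. Hnf4a had a brightest probe that did not pass (log2 change -0.15, SE 0.14) and a dimmer one that did (-0.60, SE 0.10).

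**Figure D3:**
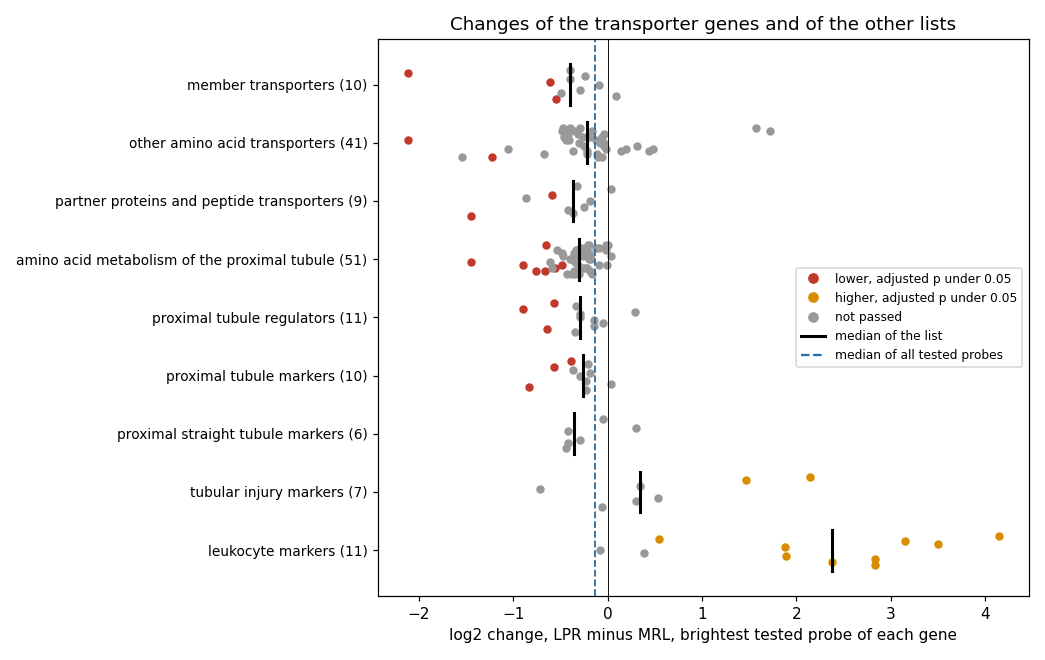
Log2 change, LPR minus MRL (horizontal axis), of the brightest tested probe of each gene (points), by list with the number of tested genes in brackets. Black bars are list medians, -0.40 for the 10 transporters, -0.22 for the other amino acid transporters and 2.38 for the leukocyte markers, and the dashed line is the median of all tested probes, -0.14.

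Markers of the cell types of the kidney were set beside these values. The kidney label held, since all 10 proximal tubule markers and all 6 markers of the proximal straight tubule were measured. Of the proximal tubule markers 3 fell, 0 rose and 7 did not pass, with a median log2 change of -0.26, and their summed linear level, relative to the 75th percentile, was 1271 to 1408 in MRL mice and 1001 to 1176 in LPR mice. Slc5a12, a lactate carrier, had a log2 change of -0.84 (SE 0.13), Slc5a2, the glucose carrier SGLT2, one of -0.57 (SE 0.12) and Lrp2, the endocytic receptor megalin, one of -0.39 (SE 0.10). Only that of Slc5a12 passed with each mouse left out, while that of Slc5a2 passed without MRL 1 or LPR 2 and that of Lrp2 in no such fit. Of the straight tubule markers 0 passed, with a median of -0.36. In limma 3 were lower and 0 higher at an unadjusted p under 0.05, and 0 passed the methods' t-test after adjustment. Their summed level was 266 to 289 in MRL mice and 194 to 232 in LPR mice. The median log2 changes of the transporters and of both proximal lists lay below the median of all probes. So did those of the thick ascending limb and distal tubule list, -0.57, and of the collecting duct list, -0.32.

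Of the 5 markers of the thick ascending limb and distal tubule 1 fell, Calb1, with a list median of -0.57. Calb1 was at -1.20 (SE 0.28) and passed without LPR 1 or LPR 2 alone. Of the 6 collecting duct markers 1 fell, Atp6v1g3 (log2 change -0.62, SE 0.14), with a list median of -0.32, and it passed without MRL 1 or LPR 1 alone. Of the 7 markers of the glomerulus and vessels 1 rose, Acta2 (0.61, SE 0.12), with a list median of 0.27, a call lost without MRL 1, MRL 3 or LPR 3.

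Leukocyte markers moved the other way. Of the 11 tested, 9 rose, 0 fell and 2 did not pass, and 0 were undetected in all MRL mice. Their summed level was 37.4 to 44.4 in MRL mice and 128 to 135 in LPR mice. Cd3g of T cells had a log2 change of 4.15 (SE 0.12) and Lyz2 of macrophages one of 3.15 (SE 0.23), and each passed with each mouse left out. Of the 7 markers of tubular injury, Lcn2 (2.14, SE 0.30) and Vim (1.47, SE 0.14) rose, also with each mouse left out, 0 fell and 5 did not pass, with a list median of 0.34. Among the 5, the log2 change of Sox9 was -0.72 (SE 0.28, limma adjusted p = 0.146), that of Clu was -0.06, and those of Havcr1, Spp1 and Krt20 were 0.34, 0.30 and 0.53. At an unadjusted p under 0.05 in limma, 1 injury marker was lower and 3 were higher. By the methods' t-test on log2 values after adjustment, 0 were lower and 1 was higher, Vim, while Lcn2 did not pass. The part of RNA from leukocytes, and of tubular injury, in the lower transporter levels was not tested.

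**Figure D4:**
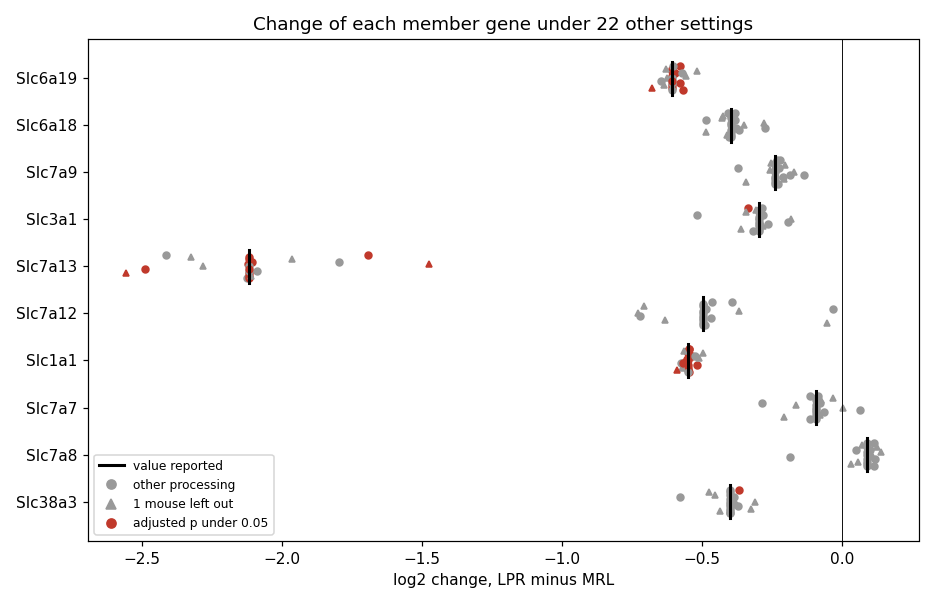
Log2 change of each transporter gene (horizontal axis) as reported (black bar), under other processing (circles) and with 1 mouse left out (triangles), with red for values that passed the adjusted threshold. Slc7a13 ran from -2.56 to -1.47 and stayed below 0 in each of 22 settings, and Slc7a7 and Slc7a8 had values on both sides of 0.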

How the data were processed

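Cy3-labelled RNA of each kidney was hybridized to 1 Agilent array. The methods of the study name Trizol for RNA isolation, and the labels the RNeasy Mini Kit. The authors deposited a background-subtracted intensity per spot, made with Feature Extraction 12.0.3.1 per the submitters' processing notes, and a table of these intensities divided by the 75th percentile of the array. Probe places are on build mm9. Control spots and 73 to 90 outlier spots per array were dropped. Intensities were log2-transformed, shifted by the 75th percentile of the array as in the study, and averaged over spots of a probe. The 39924 of 56605 probes detected on 3 or more arrays were fitted with limma 3.58.1 (R 4.3.3), adjusting p over all of them.

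The members, lists and tests were chosen with earlier results of these data known. Named genes are all members, partner and regulator genes that passed, up to 8 that passed of each of the other transporter and metabolism lists, up to 3 of each marker list, and the 5 most like Slc7a13. Slc38a8, Tmem27, Slc3a2, Hnf4a and the tubular injury markers that did not pass were named after their values were seen. Some genes of the lists enter the counts but are not reported here by name. Replicates are separate mice. The fit was run on simulated data without slide or mouse effects, as a check of the computation only and not of the calls. Alternatives varied the background correction, scaling, filter, test, slide position, replicate block and choice of probe, or left out 1 mouse. RefSeq promoter windows matched 6 of 10 members, and Slc7a13, Slc7a12, Slc6a18 and Slc38a3 had none.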

Additional observations from a re-analysis of the deposited data

How the results depend on the processing

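The 6 arrays limit the precision, and most calls among the transporters lie close to the threshold. The 3 falls among the 10 transporter genes became 5 with normexp background correction and quantile normalization together (normexp with quantile), 1 without a filter on dim probes, 1 with the slide column as a block, 1 with the methods' t-test on log2 and on linear values, and 0 with the slide row as a block, which sets LPR 1 against the MRL mice and was chosen after seeing the data. They were 2, with Slc7a13 lost, under quantile normalization alone and with the 75th percentile taken over probes detected on all arrays. With 1 mouse left out, they were 0 to 2. The rises were 0 in all settings. The falls among the other amino acid transporters, 2 as reported, became 5 under normexp with quantile, 4 with an intensity trend in limma, and 1 without the filter, with the filter on all 6 arrays and with the slide row as a block, and 1 to 3 with 1 mouse left out. Their rises, 0 as reported, became 2 under normexp with quantile and with a floor at the detection limit, 1 with the median shift, the filter on all 6 arrays, the intensity trend and the slide column, and 0 to 1 with 1 mouse left out.

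Over all tested probes, the 2462 falls became 3982 under normexp with quantile, 1093 without the filter, 973 with the slide column, 463 with the slide row, 1386 and 1354 with the methods' t-test on log2 and linear values, and 760 to 2269 with 1 mouse left out. The 2606 rises became 1458 with the slide row, 1736 and 1444 with the methods' t-test on log2 and linear values, and 1958 to 2370 with 1 mouse left out. The cause of these shifts was not tested. No gene named here that passed by its brightest probe reversed its sign in these settings, and the other genes were not examined for this. Within slide columns, LPR 2 minus MRL 1 was -3.42 for Slc7a13, -0.56 for Slc6a19 and -0.54 for Slc1a1, and LPR 3 minus MRL 2 was -1.55, -0.73 and -0.60.

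Replicate numbers were not taken to pair the mice, since same-numbered mice had correlations of their deviations from the group means of 0.15, 0.03 and 0.02. With the replicate block, 1 of the 10 transporter genes fell, Slc7a13, and 1117 probes fell in all.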
